A study of Mus musculus with 20 samples.

Results

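Ventricles of 3-day-old mouse pups (postnatal day 3, P3) that lack Creld1 in the heart muscle were compared with ventricles of wild-type pups, using 6 of the 20 libraries of the series, 3 per genotype. The members were chosen by tissue and genotype label alone. All pups were C57BL/6N; the labels spell the knockout genotype MyHC-Creld1 KO and the control genotype wild-type, and the design text places the deletion in the myocardium. The sources used here do not give the exons removed or any transgene of the controls, and cells other than heart muscle are not targeted by such a deletion. Knockout and wild-type pup 1 share a litter and a preparation date in the labels, and so do pups 2 and pups 3, so that the comparison has 3 litter pairs. Each pup is labelled as having given 1 library of atria and 1 of ventricles; whole hearts of E13.5 embryos make up the other 8 libraries of the series.

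Creld1 encodes a membrane protein of the endoplasmic reticulum with epidermal growth factor-like domains. It is known for its link to atrioventricular septal defects and to calcineurin and NFAT signalling in the developing heart. Around birth the mouse ventricle normally goes from fetal to adult gene expression: the beta myosin heavy chain Myh7 gives way to the alpha chain Myh6, the natriuretic peptide Nppa is restricted to the atria, and fatty acid oxidation takes over from glycolysis as the main source of energy. In a heart under load, part of the fetal set is known to be expressed again.

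The 6 libraries held an estimated 6366734 to 20669358 counts each, with 18424 to 21176 genes above 0. The smallest 2 of the totals belonged to wild-type replicates 3 and 2. Heart muscle and ventricular markers were high in all 6 libraries: Myh6 stood at a normalized signal of 110231, 91672 and 109989 in wild-type replicates 1 to 3 and 90907, 89599 and 107387 in the knockouts, and the ventricular light chain Myl2 47714, 47555 and 51807 and 44516, 43106 and 51161. The atrial markers Sln and Myl7 were at most 305 and 1256 in ventricles, against at least 5744 and 19990 in the atrial libraries. Of 13 lung and thymus genes, 10 liver genes and 16 skeletal muscle genes, tissues that could come along in dissection, 0, 1 and 3 reached a signal of 10 in all 6 libraries. Sex, which the labels do not give, was not matched within pairs 1 and 2. The female transcript Xist was at 2791, 74.9 and 2667 in wild-type ventricles and 21.6, 2858 and 2982 in knockouts. The Y-linked Ddx3y was at 4.66, 465 and 1.80 in wild-type and 465, 3.04 and 2.16 in knockouts. The differences of pairs 1 and 2 thus also carry a sex difference, in opposite directions, and only pair 3 was alike. Without replicate 2, that of pair 1 has no counterpart. The atrial library labelled as wild-type pup 2 had Xist at 2876 and Ddx3y at 1.83, where the ventricular library so labelled had 74.9 and 465. The Myl2 of that atrial library, 9242, stood against 21.7 to 97.2 in the other 5 atrial libraries. These 2 libraries of 1 labelled pup therefore differ in the sex that their RNA shows and may not come from 1 animal. The called genes and the comparison with atria are thus also given without replicate 2.

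Creld1 itself (chromosome 6, 113483297 to 113493343, plus strand, mm10) was detected at a low level in every ventricular library. Wild-type replicates 1 to 3 had a normalized signal of 62.2, 59.7 and 129.6, and the libraries labelled knockout one of 19.9, 59.3 and 51.9. All 3 knockouts lay below every wild-type value, but knockout replicate 2 by less than 1 unit, so that this gene hardly separates the second pair. The fitted difference was a log2 fold change of -0.97 (SE 0.56), which limma did not call (adjusted p = 0.765). Within pairs 1 to 3 the difference was -1.60, -0.01 and -1.30. Reads of the remaining exons and of non-muscle cells both count towards this value, and their part in it was not tested. Creld2, the related gene that encodes a secreted protein of the endoplasmic reticulum, was at 191, 257 and 187 in wild-type ventricles and 299.7, 210.2 and 465 in knockouts, with overlapping groups, a log2 fold change of 0.56 (SE 0.35) and an adjusted p of 0.784.

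A signal of 10 or more in 3 or more libraries was required, which left 14628 genes, of which 5 (0.0342%) passed a Benjamini-Hochberg adjusted p of 0.05 in limma's paired fit on log2(signal + 1). Of all tested genes, 0.0273% were called higher in knockout ventricles (Nppa, Xirp2, Myh7 and Sorbs2) and 0.00684% lower (Mb). The median log2 fold change over all tested genes was -0.03, and 47.8% were above 0. Unadjusted p-values under 0.05 were found for 1118 genes (7.64%), 518 higher (3.54%) and 600 lower (4.1%), where 731 in all would be reached if p-values were uniform. The groups did not overlap for 753 genes higher (5.15%) and 878 lower (6.0%). The 4 genes that rose are all muscle genes with known roles in fetal or stressed myocardium or at its junctions, and the gene that fell stores oxygen in muscle.

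Nppa (chromosome 4, 148000722 to 148002079, plus strand) encodes the precursor of atrial natriuretic peptide, a hormone that the embryonic ventricle makes and the adult ventricle mostly does not. Its signal was 971, 645 and 5411 in wild-type ventricles and 11104, 2713 and 31208 in knockouts. Each knockout was far above its own littermate, yet wild-type replicate 3 was above knockout replicate 2, so that the groups overlapped. The means were 2342 ± 2662 (SD, n = 3) and 15009 ± 14643 (SD, n = 3). The paired log2 fold change was 2.70 (SE 0.23), which is a 6.52-fold change, with an adjusted p of 0.00365 in limma. Pair differences were 3.51, 2.07 and 2.53 on the log2 scale.

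Xirp2 (chromosome 2, 67446002 to 67526614, plus strand) encodes an actin-binding protein of the intercalated disc. It was at 610.3, 250.03 and 1418 in wild-type ventricles and 1448, 699 and 4663 in knockouts. As with Nppa, the third litter had the highest value of both genotypes and the second the lowest, and the difference within each pair was of similar size (1.24, 1.48 and 1.72 on the log2 scale). The log2 fold change was 1.48 (SE 0.19), adjusted p = 0.0416.

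Myh7 (chromosome 14, 54970684 to 54994626, minus strand), the beta myosin heavy chain of the fetal ventricle, had a signal of 10932, 6231 and 5158 in wild-type ventricles and 19073, 12423 and 8808 in knockouts. Its litters were ordered otherwise than for Nppa, with the highest values in the first, and the groups again overlapped while every pair rose. The log2 fold change was 0.86 (SE 0.11), adjusted p = 0.0416. The alpha chain Myh6, the adult isoform, had a log2 fold change of -0.12 (SE 0.08), adjusted p = 0.805.

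Sorbs2 (chromosome 8, 45507788 to 45827906, plus strand) encodes an adaptor protein of the Z-disc and intercalated disc. In wild-type ventricles its signal was 12922, 13499 and 19165, and in knockouts 23570.0, 21188 and 32929, so that the lowest knockout was above the highest wild-type value. The log2 fold change was 0.77 (SE 0.09), adjusted p = 0.0416.

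Mb (chromosome 15, 77015487 to 77050670, minus strand) encodes myoglobin. Wild-type ventricles had 15946, 13500.0 and 14951 and knockouts 8161, 8345 and 8269. The 3 knockouts were nearly equal, at 8258 ± 92.8 (SD, n = 3), and all of them lay below the wild-type mean of 14799 ± 1230.2 (SD, n = 3). Mb fell by 0.84 on the log2 scale (SE 0.11), adjusted p = 0.0416.

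All 5 calls rest on the pairing by litter and on the settings of the paired fit. Without the replicate block, limma gave adjusted p-values of 0.709 for Nppa, 0.804 for Xirp2, 0.755 for Myh7, 0.635 for Sorbs2 and 0.627 for Mb. Without replicate 1, Nppa remained called (adjusted p = 0.000498) and the other 4 had adjusted p-values of 0.357 to 0.381. Without replicate 2, the doubted pair, all 5 were called. Leaving out a pair leaves 1 residual degree of freedom per gene, so that these limma p-values depend strongly on the variance trend. Of paired fits on all litters, those with no variance trend (Nppa adjusted p = 0.856) or no filter on low values (Nppa adjusted p = 0.0586) called 0 of the 5, the fit of 12 P3 libraries and that with log2 Xist as a covariate 1 each, Nppa, and quantile normalization 2, Nppa and Sorbs2. Exons of each of the 5 overlap a gene on the opposite strand (Gm13054 at Nppa, Gm13601 at Xirp2, Mhrt, Gm29015 and Gm31251 at Myh7, Sorbs2os at Sorbs2, Apol6 and Gm49540 at Mb), and the sources used here do not say whether the counting used strand.

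**Figure D1:**
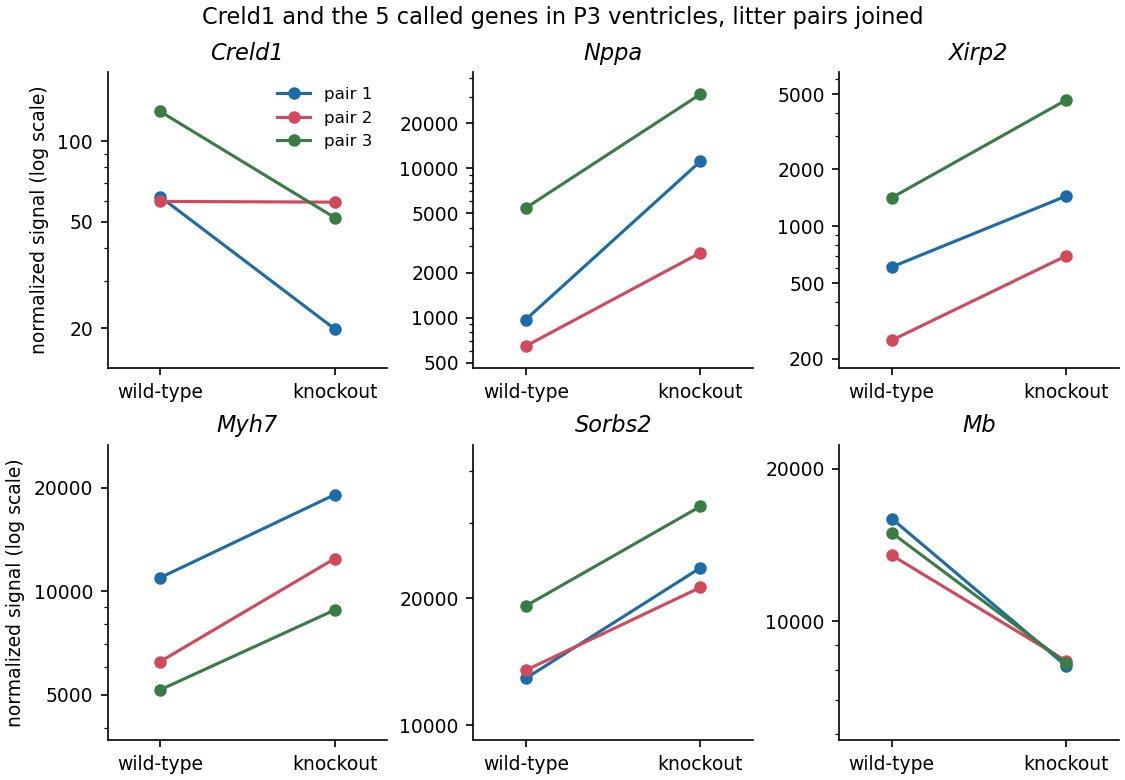
Normalized signal (log axis, 1 scale per panel) of Creld1 and the 5 genes called in the paired fit, in wild-type and knockout P3 ventricles. Each line joins the libraries of 1 litter pair: lines for Nppa, Xirp2, Myh7 and Sorbs2 all go up and those for Mb all go down, while the line for Creld1 in pair 2 is nearly flat.

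The 250 bases before the start of 3 called genes are shown, because these members rose together. They are from RefSeq on build GRCm38.p6, each on the strand of its gene, written 5′ to 3′. Capitals mark every match, on either strand, to 3 motifs. The TATA box was searched as TATAAA. The GATA factor motif was searched with either AGATAA or the closely related word TGATAA. The TEAD factor motif was searched as CATTCC. No match overlaps a match of another motif in these windows. Sorbs2 and Mb have several starts and are not shown. The windows are chr4:148000472-148000721 for Nppa (plus strand), chr2:67445752-67446001 for Xirp2 (plus strand) and chr14:54994627-54994876 for Myh7 (minus strand, 1 of 2 windows listed).
Nppa: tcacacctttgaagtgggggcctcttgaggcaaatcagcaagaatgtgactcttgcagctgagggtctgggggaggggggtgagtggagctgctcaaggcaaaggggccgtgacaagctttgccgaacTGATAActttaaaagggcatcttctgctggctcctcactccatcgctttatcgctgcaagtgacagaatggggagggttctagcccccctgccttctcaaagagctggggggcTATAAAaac
Xirp2: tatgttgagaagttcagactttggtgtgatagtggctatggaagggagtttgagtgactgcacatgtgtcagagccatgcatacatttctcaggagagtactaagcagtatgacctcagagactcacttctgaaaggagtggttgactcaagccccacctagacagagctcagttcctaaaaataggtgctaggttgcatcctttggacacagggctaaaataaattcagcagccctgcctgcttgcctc
Myh7: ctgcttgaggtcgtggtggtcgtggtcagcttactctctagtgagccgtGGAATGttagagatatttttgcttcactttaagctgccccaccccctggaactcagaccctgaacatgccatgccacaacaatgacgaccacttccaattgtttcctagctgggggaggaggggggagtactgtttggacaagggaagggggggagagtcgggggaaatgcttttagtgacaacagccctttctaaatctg
The Nppa window holds TGATAA starting 122 bases and TATAAA starting 9 bases before the start. The Myh7 window holds CATTCC on the opposite strand, from 201 bases before the start, and the Xirp2 window holds none of these words. Among 32851 promoter windows of this length, 12.4% hold TATAAA, 16.6% AGATAA or TGATAA and 12.6% CATTCC, so that each match is a description of the letters and no sign of a bound factor.

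Below the threshold, the genes with the next smallest p-values among those of at least median level were also of 2 kinds. Higher in all 3 pairs were Pam, Sfrp2, Casq1, Fstl1, Clu and Tspyl5. Pam, which encodes a peptide-amidating enzyme abundant in atrial granules, was at 43563, 50543 and 56179 in wild-type ventricles and 56381, 80324 and 89431 in knockouts, without overlap (log2 fold change 0.57 (SE 0.09), adjusted p = 0.0758). Casq1, the skeletal muscle form of the calcium store protein calsequestrin, was at 89.3, 63.8 and 135 and 671, 136 and 1268 (log2 fold change 2.40 (SE 0.42), adjusted p = 0.154); the second knockout was only just above the third wild-type value. Sfrp2, a secreted modulator of Wnt signalling, was at 1147, 2035 and 2229.5 and 2316, 3066 and 5005 (log2 fold change 0.92, adjusted p = 0.154). Fstl1, Clu and Tspyl5 had log2 fold changes of 0.62, 1.26 and 0.96, all with an adjusted p of 0.211 and with no overlap between the groups. None of these 6 passed the test.

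The lower genes included Fabp3, Atp2a2, Lpl and Itga6. Fabp3, the fatty acid binding protein of heart muscle, was at 30197, 28114 and 30005 in wild-type and 17995, 18658 and 19821 in knockouts, with a gap between the groups (log2 fold change -0.65 (SE 0.09), adjusted p = 0.0561). Atp2a2, the calcium pump SERCA2 of the sarcoplasmic reticulum, was at 30236, 40971 and 31304 and 21301, 28148 and 20767, and its pair differences of -0.51, -0.54 and -0.59 were nearly equal (log2 fold change -0.55 (SE 0.09), adjusted p = 0.0927). Lpl, the lipase that frees fatty acids from circulating lipoproteins, was at 16156, 18409 and 18830.0 and 11553, 12316 and 12102 (log2 fold change -0.57, adjusted p = 0.143). Itga6, a laminin receptor subunit, was at 2276, 2512 and 1963 and 1379, 1301 and 1048 (log2 fold change -0.86, adjusted p = 0.211). In each of these the highest knockout was below the lowest wild-type value, but none passed the test.

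**Figure D2:**
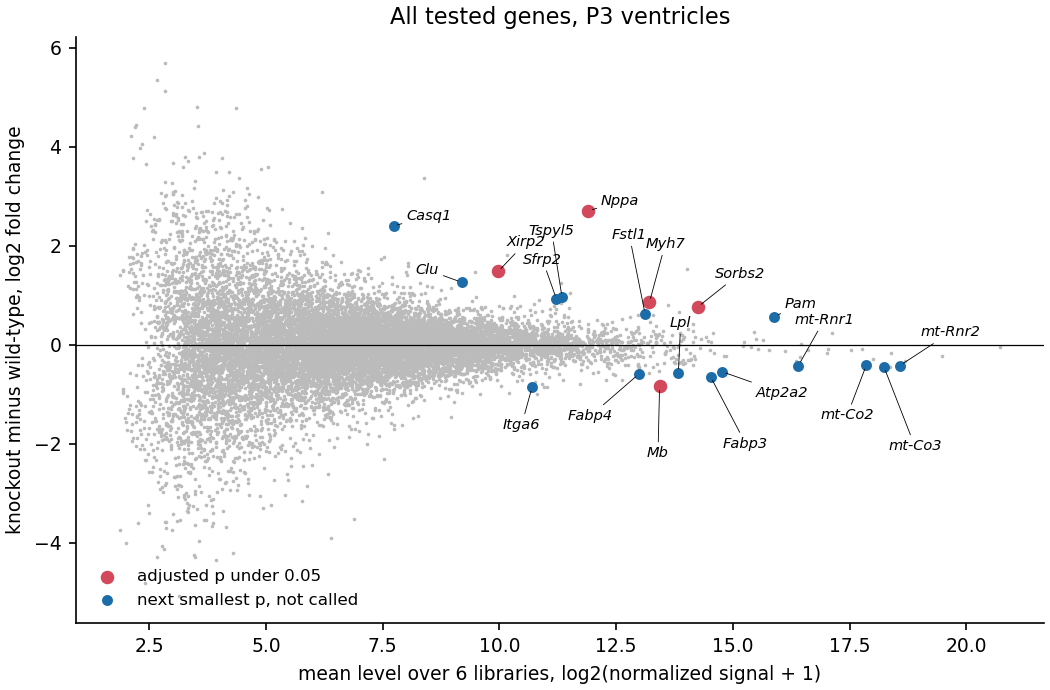
Paired log2 fold change (knockout minus wild-type) of the 14628 tested genes against their mean level over the 6 ventricular libraries. Red points are the 5 called genes, of which Nppa has the largest change (2.70), and blue points the genes named next; all of them lie at or above the median level, where the grey points spread less.

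Genes known to be expressed in fetal or stressed heart muscle stood mostly higher in knockout ventricles. Of 23 genes on that list 21 were tested, of which 20 had a log2 fold change above 0 and 1 below, with a median of 0.78 against -0.03 for all genes. Nppa, Myh7 and Xirp2 were called, against 0.0273% of all genes called higher. Of the 21, 12 had an unadjusted p under 0.05 and a positive difference against 3.54% of all genes, and 8 had non-overlapping groups against 5.15%. By pair the list's median was 0.58, 0.55 and 1.39, largest in the third litter. Since the list was chosen with earlier results of these data known, its counts are a description.

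Ankrd1, a stress-responsive titin-associated repressor, was at 10192, 11161 and 8219.9 in wild-type ventricles and 27956, 14964 and 53036 in knockouts, with no overlap (log2 fold change 1.52 (SE 0.30), adjusted p = 0.211). Nppb, the brain natriuretic peptide precursor, was at 559, 719.7 and 450.4 and 1411, 765 and 3922 (log2 fold change 1.51 (SE 0.43), adjusted p = 0.454). For both, knockout replicate 3 was highest and knockout replicate 2 the lowest of the knockouts, for Nppb hardly above the wild-type range. Ctgf, a matrix-associated growth factor, was at 805, 895 and 312 and 1753, 1344 and 4087 (log2 fold change 1.81, adjusted p = 0.372), again highest in knockout replicate 3. Clu, a secreted chaperone, was at 378, 414 and 341 and 877, 751 and 1127, and all 3 knockouts were well above all wild-type values. The small heat shock protein gene Hspb1 was at 824, 647 and 896 and 1291, 947 and 1973 (adjusted p = 0.372) and the LIM protein gene Fhl1 at 1837, 1998 and 1760.5 and 2608, 2476 and 4416 (adjusted p = 0.454). The skeletal actin gene Acta1, another fetal gene, did not follow: it was at 274, 195 and 727 and 370.2, 131 and 1074, with a log2 fold change of 0.14 (SE 0.30). Cryab, a chaperone of muscle, had a log2 fold change of 0.10 (SE 0.12) and Timp1 one of -0.04 (SE 0.53).

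Genes of fatty acid uptake and oxidation, the fuel pathway that the newborn ventricle takes up, lay below wild-type almost throughout. Of 33 tested genes (34 on the list) 32 had a negative log2 fold change, the median was -0.56, and it was -0.59, -0.30 and -0.64 in the 3 pairs. None was called; 17 had an unadjusted p under 0.05 and lay lower (4.1% of all genes) and 16 had non-overlapping groups (6.0% of all genes). The summed signal of the list was 152500 to 160161 in wild-type and 105063 to 117979 in knockout ventricles. In bulk tissue, fewer cells of a type and less RNA per cell cannot be told apart.

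Among the enzymes of mitochondrial beta oxidation, Decr1 was at 2719, 2789 and 2867 in wild-type and 1757, 1624 and 1274 in knockouts (log2 fold change -0.86 (SE 0.17), adjusted p = 0.211). Hadhb, a subunit of the trifunctional protein, was at 9189.7, 8319 and 7039.8 and 4293, 5926 and 4758 (log2 fold change -0.72 (SE 0.14), adjusted p = 0.211), and Acadm, the medium-chain dehydrogenase, at 6713, 5976 and 6396 and 3875, 4725 and 3170.1 (log2 fold change -0.71 (SE 0.15), adjusted p = 0.219). In all 3 the groups did not overlap. The second knockout had the highest Hadhb and Acadm of the knockouts. The uptake genes were mixed in size: the fatty acid transporter Cd36 was at 15791, 19729.8 and 20127 and 12492, 16239 and 14103, with overlap (log2 fold change -0.38), while Fabp4, which is expressed in capillary endothelium, was at 8061, 10439 and 11718 and 5388, 7389.6 and 7219.7 (log2 fold change -0.59, adjusted p = 0.211). The difference was smaller for Acadl, the long-chain dehydrogenase, with a log2 fold change of -0.21 (SE 0.11).

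Nuclear genes of the respiratory chain were lower by a smaller amount and with little variation among them. All 33 had a negative log2 fold change, with a median of -0.31; 18 had an unadjusted p under 0.05 against 4.1% of all genes, 13 had non-overlapping groups against 6.0%, and none was called. Uqcrfs1, the iron-sulphur subunit of complex III, had the smallest p and was at 4634, 5710.1 and 5814 in wild-type and 3187, 3427 and 4398 in knockouts (log2 fold change -0.56 (SE 0.13), adjusted p = 0.288). Cox4i1 of complex IV had a log2 fold change of -0.38 (SE 0.10) and Atp5a1 of the ATP synthase one of -0.35 (SE 0.10).

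The 15 protein-coding and ribosomal transcripts of the mitochondrial genome were also all below 0, with a median of -0.29 and 12 of them at an unadjusted p under 0.05 against 4.1% of all genes, none called. They made up 38.3 to 41.1% of the signal in wild-type and 36.2 to 37.1% in knockout ventricles, so that the shares did not overlap. mt-Co3, a cytochrome oxidase subunit, was at 336043, 392670.0 and 350798 in wild-type and 267825, 275281 and 250651 in knockouts (log2 fold change -0.44 (SE 0.06), adjusted p = 0.0618), and mt-Co2 had a log2 fold change of -0.41 (adjusted p = 0.0719). mt-Cytb, the most abundant of them, differed by -0.05 (SE 0.07). Nuclear copies of mitochondrial sequence can share these reads, so that the split among the transcripts is uncertain. With the libraries rescaled to equal totals without any mitochondrial transcript or the pseudogene Gm29216, the medians of the fatty acid and nuclear respiratory lists were -0.56 and -0.31, as before; under quantile normalization the median of the mitochondrially encoded list was -0.07.

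Of 18 genes of the energy shuttle and the oxygen store, 17 lay below 0 (median -0.28), and Mb, already described, was the only one called, against 0.00684% of all genes called lower. Adssl1, the muscle adenylosuccinate synthase, was at 943, 713 and 706 in wild-type and 362, 359 and 328 in knockouts, a clear gap with an adjusted p of 0.211 (log2 fold change -1.16 (SE 0.23)). Ckmt2, the mitochondrial creatine kinase of muscle, was at 2248, 2152 and 3862 and 933, 1435 and 2377, lower in each pair while the groups overlapped (log2 fold change -0.85 (SE 0.18), adjusted p = 0.219). Glycolysis and lactate genes had no common direction: of 24 tested, 11 were above and 13 below 0, with a median of -0.03. Within them Ldhb, the heart form of lactate dehydrogenase, had a log2 fold change of -0.43 (SE 0.11), the muscle enolase Eno3 -0.58 (SE 0.17) and the phosphofructokinase gene Pfkp 0.53 (SE 0.20), none called.

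**Figure D3:**
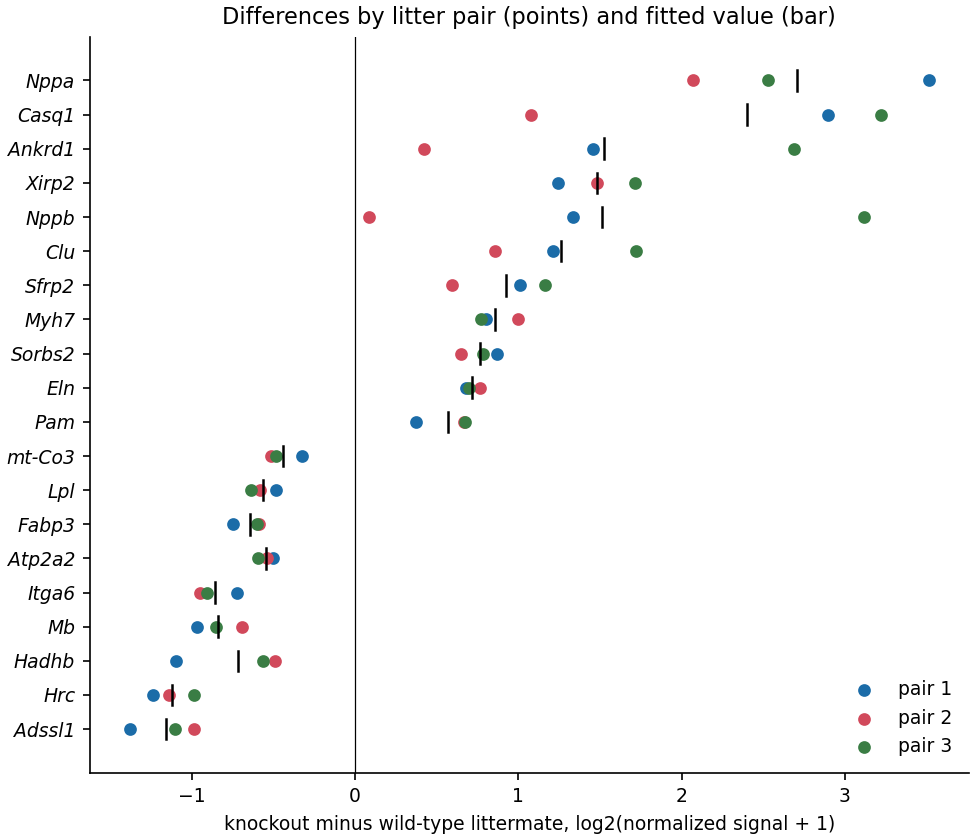
Difference between knockout and wild-type littermate on the log2(normalized signal + 1) scale in each of the 3 litter pairs (points), with the fitted value (bar), for 20 genes. Points lie on 1 side of 0 for every gene shown, close together for Atp2a2, Lpl and Eln and far apart for Nppb and Ankrd1, each with its smallest difference in the second pair.

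Calcium handling genes went both ways, 11 above and 12 below 0 among 23, with a median of -0.03. At an unadjusted p under 0.05, 2 were higher and 4 lower, against 3.54% and 4.1% of all genes. The groups did not overlap for 4 higher and 4 lower members, against 5.15% and 6.0%. Besides Atp2a2 and Casq1, Hrc, a calcium-binding protein of the sarcoplasmic reticulum, was at 510.0, 523 and 456 in wild-type and 215, 236 and 229 in knockouts (log2 fold change -1.12 (SE 0.26), adjusted p = 0.288). A wide gap lay between the highest knockout and the lowest wild-type value. Trdn, which anchors the release complex, had a log2 fold change of -0.40 (SE 0.12), the SERCA inhibitor Pln -0.22 (SE 0.09) and the release channel Ryr2 -0.30 (SE 0.14). None of the list was called.

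Ion channel and gap junction genes were lower in 15 of 21 tested cases, with a median of -0.37, 4 lower at an unadjusted p under 0.05 (4.1% of all genes) and none called. The potassium channel gene Kcnd2 was at 80, 56.5 and 69.6 in wild-type ventricles and listed at 0, 38.3 and 0 in knockouts. Its channel partner Kcnip2 was at 151, 141 and 107 and 33.8, 92.9 and 22.6 (log2 fold change -1.64 (SE 0.51), adjusted p = 0.49), and for both genes the second knockout was the nearest to wild-type. Kcnk3, a background potassium channel, was at 104, 35.6 and 47.7 and 12.5, 4.85 and 4.34 (adjusted p = 0.422). These are low signals, at which the scatter between libraries is wide.

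The contractile apparatus as a whole was balanced. Of 27 sarcomere and Z-disc genes 11 were above and 16 below 0, the median was -0.03, and none was called. Csrp3, the muscle LIM protein, was at 6311, 5829 and 5450.5 in wild-type and 7685, 7133 and 11668 in knockouts (log2 fold change 0.56 (SE 0.16), adjusted p = 0.464). Tnni3, the adult cardiac troponin I, had a log2 fold change of -0.30 (SE 0.09) and Tnni1, its fetal counterpart, 0.19 (SE 0.18). Titin (Ttn) had one of 0.06 (SE 0.08) and the troponin T gene Tnnt2 -0.02 (SE 0.13). At the intercalated disc, 13 of 22 genes were above 0, with Dsg2, a desmosomal cadherin, at -0.72 (SE 0.23) and Vcl, vinculin, at 0.75 (SE 0.25).

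Chamber genes had no common direction. Of 16 tested atrial genes 8 were above and 8 below 0, and Nppa was the only one called, against 0.0273% of all genes called higher. At an unadjusted p under 0.05, 4 of them were higher and 1 lower, against 3.54% and 4.1% of all genes. The atrial light chain Myl4 was at 448, 359.7 and 777 in wild-type ventricles and 842, 937 and 1009 in knockouts (log2 fold change 0.89 (SE 0.24), adjusted p = 0.44), Myl7 at 571, 537 and 809 and 1013, 1256 and 669, and Sln at 267, 171 and 302 and 249, 305 and 156. Myl4 separated the genotypes, Myl7 and Sln did not, and all 3 were far below their atrial levels. The summed signal of the atrial list was 53013 to 72848 in wild-type and 79799 to 135844 in knockouts, most of it from Pam and Nppa. Among 17 tested ventricular genes 6 were above and 11 below 0, with a median of -0.09 and Myh7 the only one called, against 0.0273% of all genes called higher. Here 2 were higher and 5 lower at an unadjusted p under 0.05, against 3.54% and 4.1% of all genes.

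The calcineurin and NFAT genes, to which Creld1 is linked, showed no common direction: 13 of 24 were above 0, the median was 0.04, 2 were higher and 1 lower at an unadjusted p under 0.05 (3.54% and 4.1% of all genes), and none was called. The catalytic subunit gene Ppp3ca was at 1113, 1371 and 1684 in wild-type and 1181, 1756 and 1406 in knockouts, and Nfatc1 at 89.2, 99 and 67.2 and 106, 66.8 and 114. Neither separated the genotypes. Rcan1, whose short form is a known NFAT target, was at 229.7, 199 and 183 and 308, 241 and 360.0, higher in all knockouts with a log2 fold change of 0.55 (SE 0.30) and an adjusted p of 0.743. Cabin1, a calcineurin inhibitor, was at 121, 104 and 156 and 79.8, 59.3 and 43.1 (log2 fold change -1.08 (SE 0.46), adjusted p = 0.635).

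In the compartment where Creld1 resides, 20 of 29 tested genes of endoplasmic reticulum chaperones and the unfolded protein response were above 0, with a median of 0.25, 5 higher at an unadjusted p under 0.05 (3.54% of all genes) and none called. The chaperone Hsp90b1 was at 6966, 7199 and 7101 in wild-type and 9668, 8318 and 9312 in knockouts, without overlap (log2 fold change 0.36 (SE 0.11), adjusted p = 0.506). Canx, the membrane lectin calnexin, had a log2 fold change of 0.43 (SE 0.12) and Hspa5, the main chaperone of the compartment, 0.34 (SE 0.14). Of 18 tested genes of the ATF4 response 11 were above 0, with a median of 0.13.

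Collagen and matrix genes were above 0 in 21 of 30 cases (median 0.27), with 8 higher at an unadjusted p under 0.05 against 3.54% of all genes and none called. Eln, elastin, was at 1501, 1487 and 2200.1 in wild-type and 2406, 2527 and 3573 in knockouts, and its pair differences were nearly equal (log2 fold change 0.71 (SE 0.15), adjusted p = 0.219). Tnc, a matrix glycoprotein of remodelling tissue, was at 169.8, 171 and 149 and 332, 277 and 545 (log2 fold change 1.17 (SE 0.33), adjusted p = 0.454). Fn1, fibronectin, had a log2 fold change of 0.48 (SE 0.18) and the versican gene Vcan 0.77 (SE 0.28). The markers of fibroblasts, which make much of this matrix, were above 0 in 11 of 16 cases with a median of 0.15; their summed signal was 63578 to 67591 in wild-type and 65622 to 80956 in knockouts. Their part in the matrix result was not tested.

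Smooth muscle and pericyte markers were above 0 in 9 of 14 cases. Acta2, smooth muscle actin, which fetal heart muscle also expresses, was at 1759, 1825 and 1723 in wild-type and 3599, 1951 and 3989 in knockouts (log2 fold change 0.78 (SE 0.21), adjusted p = 0.44). Cnn1, a calponin, was at 4.55, 4.32 and 2.11 and 50.5, 29.4 and 149 (adjusted p = 0.355), while the pericyte marker Rgs5 was lower, at 1603, 1550.0 and 1926 and 1293, 1034 and 1193 (log2 fold change -0.53 (SE 0.17), adjusted p = 0.534). Endothelial and endocardial markers were below 0 in 12 of 18 cases (median -0.26), and their summed signal, of which Fabp4 is the largest part, was 12856 to 17079.5 in wild-type and 9485 to 12073 in knockouts. Kdr, a receptor of vascular endothelial growth factor, was at 863, 1245 and 1318 and 529, 894 and 714 (log2 fold change -0.69 (SE 0.20), adjusted p = 0.454). Pecam1, the pan-endothelial marker, overlapped at 474, 413 and 499.8 and 304, 565 and 362, and Emcn, of veins and endocardium, went the other way with a log2 fold change of 0.72 (SE 0.28). The part of endothelial RNA in the lower Lpl, Cd36 and Fabp4 was not tested.

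Macrophage markers were above 0 in 13 of 17 tested cases at low levels. C1qa, a complement gene of resident macrophages, was at 2.82, 0 and 2.18 in wild-type ventricles and 33.8, 14 and 20.9 in knockouts (adjusted p = 0.559), while its partner C1qb was at 56.4, 19.3 and 17.4 and 25.1, 41.9 and 10.5 and the receptor gene Csf1r at 52.3, 47.2 and 175 and 85.4, 74.7 and 121, both with overlap. The list's summed signal was 1009.5 to 1205 and 1181 to 1504. Of 7 tested erythroid genes, a mark of red cells in the tissue, 6 were above 0, with a median of 0.55 and 2 higher at an unadjusted p under 0.05 (3.54% of all genes). All overlapped between the genotypes, with Hba-a2 at 5388, 8318 and 11993 and 12928, 9136 and 16194. Of 12 epicardial markers 8 were above 0, and Krt18 was at 30.1, 28.3 and 37 and 74.4, 71.1 and 207. No gene of these lists was called.

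**Figure D4:**
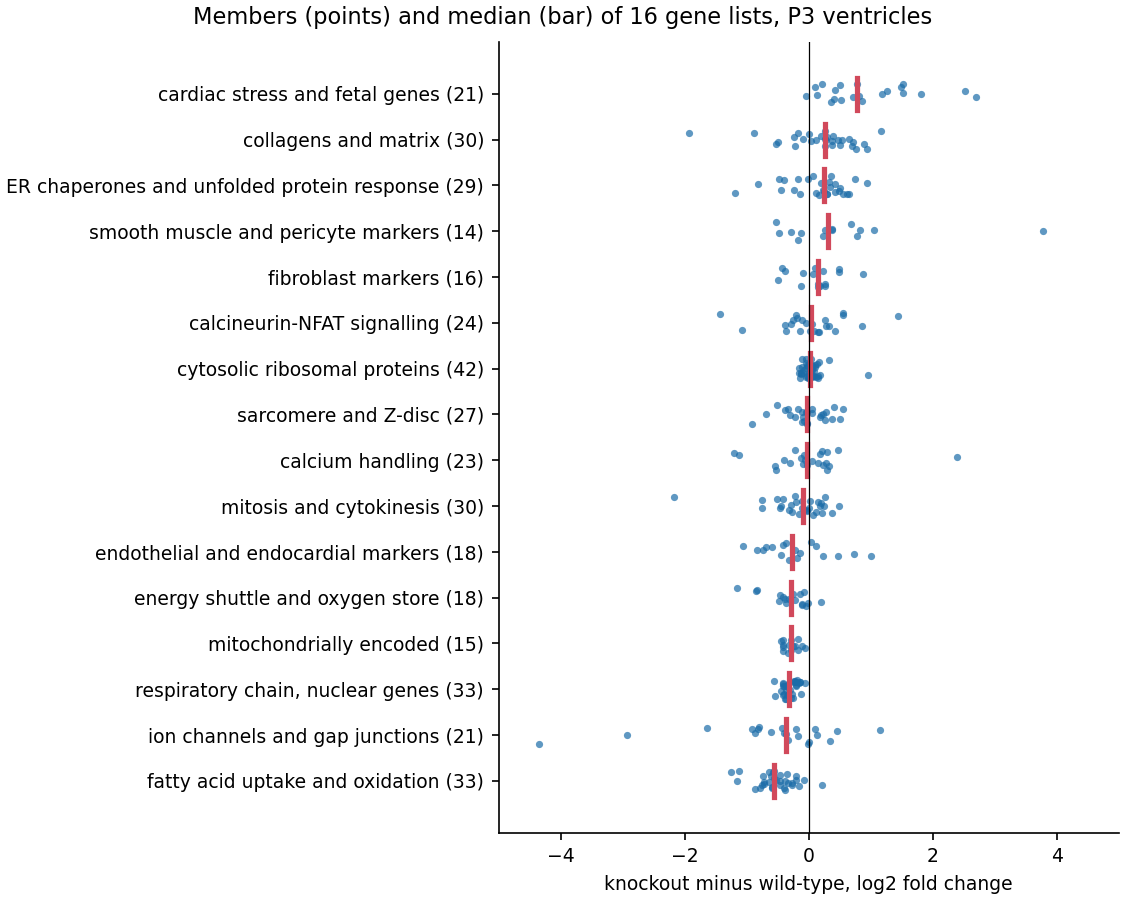
Paired log2 fold change of the tested members (points, with their number in brackets) and the median (bar) of 16 gene lists in P3 ventricles. The bar of the cardiac stress and fetal genes stands farthest to the right (0.78) and that of the fatty acid genes farthest to the left (-0.56), while ribosomal, sarcomere and calcineurin genes have medians close to 0.

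Growth and housekeeping lists stayed near the median of all genes. Mitosis genes were above 0 in 11 of 30 cases (median -0.09), DNA replication genes in 8 of 25 (median -0.16) and cytosolic ribosomal protein genes in 25 of 42 (median 0.02). Among 16 tested imprinted growth genes, Igf2, a fetal growth factor, was at 1402, 1128 and 916 in wild-type and 1517, 1615 and 1404 in knockouts, without overlap (log2 fold change 0.42 (SE 0.18), adjusted p = 0.645). Of 21 genes of trabeculation and compaction 16 were above 0 (median 0.16); Tbx20, a transcription factor of the developing myocardium, was at 2283, 2291 and 1938 and 3443, 3361 and 3103, clearly apart (log2 fold change 0.61 (SE 0.14), adjusted p = 0.288). Chrm2, the muscarinic receptor of the heart, was at 441, 565 and 513 and 1003, 802 and 743, also without overlap (adjusted p = 0.49). None of these lists held a called gene.

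The same genes were then read in the atria labelled as from these pups and in E13.5 hearts. Creld1 was at 105, 21.6 and 146 in wild-type atria and 23.1, 26.6 and 82.4 in knockouts. In E13.5 hearts it was at 66.0, 92.2, 60.8 and 34.0 in wild-type and 70.9, 7.48, 38.4 and 4.64 in knockouts. The library labelled knockout was therefore not the lower one in replicate 2 of the atria and replicate 1 of the E13.5 hearts. Whether the knockout effect differed between the tissues was tested in limma on the ventricle minus atrium value of each labelled pup. This passed the threshold for 1 gene (0.00684% of 14628), Mest, and 1077 genes (7.36%) had an unadjusted p under 0.05. Mest, an imprinted gene of fetal growth, was at 2706, 2727 and 3125 in wild-type ventricles and 2645, 1941 and 2292 in knockouts, where it did not pass the test (log2 fold change -0.32 (SE 0.16), adjusted p = 0.684). In atria it was at 2405, 3004 and 2306 in wild-type and 9463, 13529.6 and 12112 in knockouts, so that every knockout was far above every wild-type atrium. The difference of the 2 effects was -2.50 (SE 0.25), adjusted p = 0.0332; without replicate 2 it was -2.42 (adjusted p = 0.00612), and without the replicate block the adjusted p was 0.999876.

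For the genes called in ventricles, the difference from the atria did not pass the test. Nppa was at 45736, 32879.7 and 115762 in wild-type atria and 98476, 95071 and 379853 in knockouts, with a log2 fold change of 1.45 (SE 0.32) there and a difference of 1.25 (SE 0.34, adjusted p = 0.636). Xirp2 was at 716, 685 and 199 and 288, 231 and 287 in atria, lower in the first 2 knockouts where the ventricles were higher (difference 2.26, SE 0.40, adjusted p = 0.609). Mb, at 1400.1, 3585 and 3998 and 323, 346 and 1357, was lower in atria as in ventricles, with an atrial log2 fold change of -2.35 (SE 0.32, adjusted p = 0.075). Casq1 was at 26.4, 55 and 79.6 and 424, 540.0 and 1628 in atria, where its log2 fold change of 3.85 (SE 0.33) was called (adjusted p = 0.00915), 1 of 3 genes (0.0205%) called higher there. Myh7 and Sorbs2 had atrial log2 fold changes of -0.15 (SE 0.27) and 0.32 (SE 0.22). Without replicate 2, whose wild-type atrial library is doubted, the differences between ventricles and atria were 1.61 for Nppa (adjusted p = 0.346), 1.87 for Xirp2 (adjusted p = 0.252) and 0.93 for Mb (adjusted p = 0.476) in limma. The atrial values were then 4.14 for Casq1 (adjusted p = 3.65e-06) and -1.84 for Mb (adjusted p = 0.00201), both called. That of Nppa was 1.41 (adjusted p = 0.686) and that of Xirp2 -0.39 (adjusted p = 0.773), while that of Myh7 changed sign to 0.25 (adjusted p = 0.811). The number of genes called in atria was then 59 higher and 33 lower, against 3 and 0 with all pairs. This atrial fit, too, had 1 residual degree of freedom per gene.

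Against whole E13.5 hearts, 0 genes passed in limma and 750 (5.13%) had an unadjusted p under 0.05; stage and dissection cannot be told apart in this contrast. Nppa came closest, with a difference of 2.83 (SE 0.37) and an adjusted p of 0.0878, which with a pseudocount of 10 was 0.0284. In E13.5 hearts Nppa was at 7358, 9484, 11156 and 11528 in wild-type replicates 1 to 4 and 11961, 6073, 8757 and 9894 in knockouts, so that the genotypes overlapped. At that stage both genotypes were above the wild-type P3 ventricles. Mb was at 533, 998, 570.1 and 661 in wild-type E13.5 hearts and 692, 643, 959 and 727 in knockouts, and Myh7 at 11899.8, 19326, 12214 and 20481 and 18204, 10605, 20540.2 and 14756. Knockout P3 ventricles, at 8161 to 8345, had Mb well above every E13.5 heart and below every wild-type P3 ventricle.

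**Figure D5:**
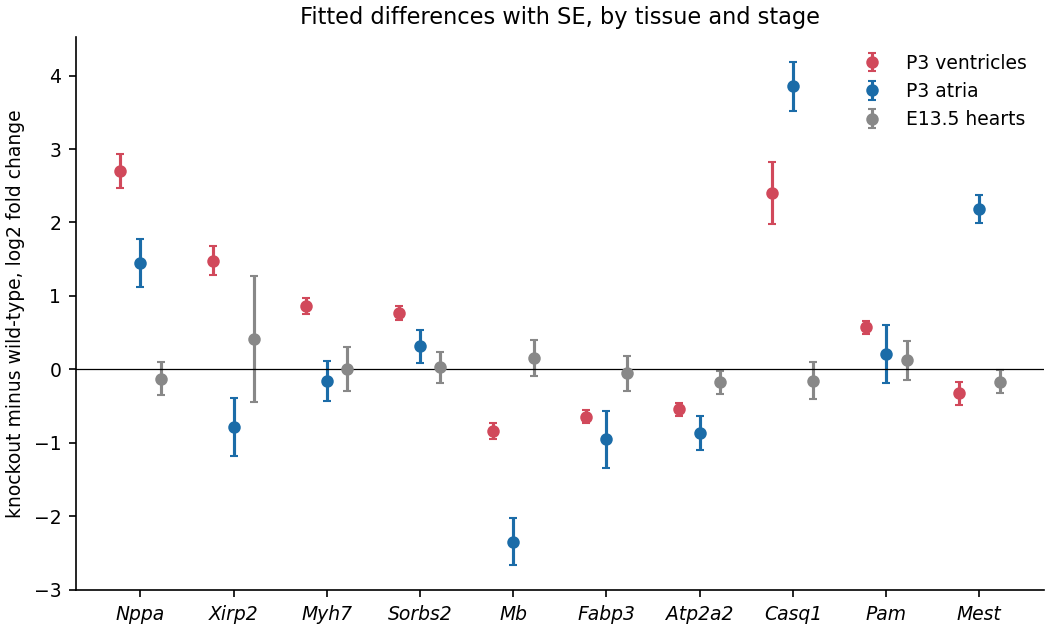
Fitted log2 fold change (knockout minus wild-type) with its standard error for 10 genes in P3 ventricles, P3 atria and E13.5 hearts. The E13.5 values lie between -0.18 and 0.41, the ventricular value is the highest for Nppa, Xirp2, Myh7, Sorbs2 and Pam, and Mest is at 2.18 in atria against -0.32 in ventricles.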

How the data were processed

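Messenger RNA was extracted with the RNeasy Micro kit and made into libraries by SMART-Seq2, per the labels' protocols. The authors deposited 1 table of 26440 genes in 20 libraries of linear normalized signal, whose scaling the labels do not state. Per the submitters' processing notes, mm10, STAR 2.5.1, bcl2fastq 2.2 and DESeq2 were used, in roles that are not stated. For the counting tool, annotation release and strand setting nothing is given in the sources used here. In small gene classes 99.7 to 99.8% of low values were whole multiples (within 0.01 reads) of 1 step per library, and over all genes 47.8 to 61.1%. The step gave the estimated totals, and no count test was run. These totals cover counting error only, since reads copied by PCR and not marked by molecular identifiers are not independent.

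The 6 ventricular libraries were grouped by genotype label and fitted on log2(signal + 1) in limma 3.58.1 (R 4.3.3), with replicate number as a block, a variance trend, 2 residual and 8.27 prior degrees of freedom, on 14628 genes with a signal of 10 or more in 3 or more libraries. Fold changes on this scale understate the change of low genes. Tests were two-sided, with Benjamini-Hochberg adjustment over all tested genes at 0.05. An exact unpaired permutation test of 3 against 3 could not go below p = 0.1, and swaps within 3 pairs allow fewer arrangements still. Same-numbered libraries share a litter and preparation date in the labels; their deviations from the group means correlated at 0.0629, 0.0330 and 0.0667, and others at -0.0767 to 0.0259. Pups are separate animals.

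Named genes were Creld1 and Creld2, the called genes and those with the next smallest p-values up to 10 per direction (at least median level, proper symbol, not sex-linked, same sign in 3 pairs), up to 3 members per list by p, and genes called in the tests against atria or E13.5 hearts. Further members of a list are named for their known role and were chosen after their values were seen. The 40 gene lists (799 genes) and the comparison itself were chosen with earlier results of these data known. Lists are described by counts and medians, with no set test. The fit was tested on simulated data. Gene positions are from GENCODE M21 (GRCm38, the same assembly as mm10), which holds 26386 of the 26440 identifiers. Alternatives changed the block, pseudocount, filter, scaling, variance trend, libraries and an Xist covariate.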

Additional observations from a re-analysis of the deposited data

Results flagged for a closer look

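The knockout effect on Mest, an imprinted gene, differed between ventricles and atria labelled as of the same pups. The difference was -2.50 on the log2 scale (SE 0.25, adjusted p = 0.0332 in limma), the only one that passed among 14628 genes tested. It was picked out because the 2 tissues differ in the effect by a test of the difference itself. Wild-type levels were alike in both tissues, at 2706, 2727 and 3125 in ventricles and 2405, 3004 and 2306 in atria. Wild-type atria and the ventricles of both genotypes were lower than the E13.5 hearts, which had 8813 to 12569 over both genotypes. Knockout atria, at 9463, 13529.6 and 12112, were not. The difference of the knockout effect was -2.75, -2.42 and -2.33 without replicates 1, 2 and 3, and without the replicate block its adjusted p in limma was 0.999876.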

How the results depend on the processing

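The counts of called genes depend on the pairing. Without the replicate block limma called 0 genes higher and 0 lower (906 at an unadjusted p under 0.05) and 0 list members, against 4, 1 and 4 with it. Leaving out single libraries without the block also gave 0, 0 and 0 (704 to 1049 at an unadjusted p under 0.05). The other fits without the block gave 0 as well, with log2 Xist as a covariate (835) or with the spread shared over 20 libraries (540), and so did the blocked fits with no filter on low values (1466) or no variance trend (797). Leaving out a litter pair gave 1 to 62 genes higher, 0 to 43 lower and 1 to 39 list members, lowest without replicate 1 and highest without replicate 2 (62, 43 and 39), while without replicate 3 there were 8, 7 and 7. A filter of 50 gave 11 higher, 12 lower and 14 list members, quantile normalization 2, 0 and 1 (1100), and the blocked fit of 12 P3 libraries 1, 0 and 1. A pseudocount of 0.5 gave 2 lower. Another pair of alternatives was chosen after seeing the data: the blocked fit with log2 Xist gave 1, 0 and 1, and equal totals without mitochondrial transcripts gave 5 lower and 7 list members. The cause of these changes was not tested. The difference between ventricles and atria was called for 0 genes without the block (338 at an unadjusted p under 0.05) and for 1 to 4 without a replicate, and that against E13.5 for 1 gene with a pseudocount of 10. Without replicate 2, also chosen after seeing the data for the atrial effects, the atrial log2 fold change of Myh7 turned from -0.15 to 0.25.

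None of 2345 ventricular values of 107 named genes under 22 alternatives changed sign, while 36 passed the threshold newly and 70 no longer did. Most of these genes were named for small p-values in the same libraries, some also for the same sign in every pair. Removing only the block, the variance trend or the filter cannot alter a fold change: Nppa stayed at 2.70 and Mb at -0.84. Without the block or the trend, list medians also stay as they were. The lack of sign changes was thus partly fixed in advance. The medians of the stress and fetal (0.50 to 0.94), fatty acid (-0.65 to -0.45) and nuclear respiratory (-0.37 to -0.25) lists kept their sign in all 22, and those of the calcineurin, calcium handling, sarcomere and ribosomal lists in 18, 18, 19 and 18. The log2 fold change of Creld1 was -1.45 to -0.49.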

Other observations

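Fcrls, a gene of resident macrophages in some tissues, was listed at 0 in all 3 wild-type ventricles and at 48.3, 51.0 and 52.3 in the knockouts. It was singled out after its values were seen. In atria it was at 24.8, 24.3 and 65.6 in wild-type and 27.5, 19.9 and 44.7 in knockouts, so that the pattern of the ventricles was not seen there, and its adjusted p in ventricles was 0.219.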
